A study of Homo sapiens with 8 samples.

Results

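The sites described here are the regions of open chromatin that the authors listed as opened by morphogens and closed by p63, in a comparison attached to wild-type and p63 knockout cells at day 7. All autosomal sites of that list were taken, which gave 6005 of the 14191 sites in the authors' 2 lists. A further 32 sites of the same list lie on chromosome X and were left out. They are called p63-closed sites below. The other list, of which 7753 sites are autosomal, holds sites listed as opened by morphogens between day 0 and day 7, and its members are called opened sites. "Opened" and "closed" are the authors' calls. The lists give the position of each site and no count, signal or p-value, so the calls could not be recomputed.

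Accessible chromatin was profiled by ATAC-seq, which uses a transposase to tag open DNA, in H9 cells, a human embryonic stem cell line. The 8 samples form 4 groups of 2. The p63-closed list belongs to wild-type cells and to p63-/- cells, both differentiated for 7 days with BMP4 at 5 ng/ml plus retinoic acid at 1 uM and both described by the submitters as surface ectoderm. The list of opened sites belongs to the wild-type cells at day 7 and to undifferentiated wild-type cells at day 0. A line with an inducible p63 transgene (TetO:Tp63+/-), given doxycycline (2 ug/ml) for 2 days at day 0, has no list analysed here. The labels do not say how the knockout was made, whether it is 1 clone, or whether replicates are separate cultures. No expression was measured here, so the labelled cell type could not be checked against its markers. Depth is unknown, and the lists hold no value per sample. Every count below is therefore of sites in a list, with no spread between replicates and no test between genotypes.

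Surface ectoderm is the simple epithelium from which epidermis and its appendages form. p63, encoded by TP63, is a transcription factor of the p53 family that is required for stratified epithelia and binds mostly at enhancers, away from gene starts. Retinoic acid acts through nuclear receptors that sit on DNA and regulate patterning genes, among them their own receptor RARB, while BMP4 acts through SMAD proteins and turns ectoderm away from the neural fate. The same morphogens are also used by mesoderm and neural crest.

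To place the sites, 148 autosomal loci were taken in 4 lists. There were 32 mesoderm loci, 32 neural loci, 42 patterning loci (HOX clusters and genes of the retinoic acid, BMP, Hedgehog, WNT and FGF pathways, among others) and 42 epithelial loci. Gene positions are general knowledge of the hg19 annotation, held to the nearest 1 kb, and were not read from a deposited file. A site was counted at a locus when its centre lay in the gene or within 100 kb of it. Which gene a site acts on is not known from its position. Site coordinates are 1-based and on hg19.

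The p63-closed sites gathered most at patterning loci. The windows of the 42 patterning loci held 57 p63-closed sites, 4.89 per Mb, against 2.16 per Mb over the autosomes, a 2.26-fold density (95% interval 1.71 to 2.93). The epithelial loci held 41, at 1.87-fold the autosomal density (1.34 to 2.54). The neural loci held 26, at 1.37-fold (0.897 to 2.01), and the mesoderm loci 19, at 1.12-fold (0.673 to 1.75). The intervals of the neural and mesoderm loci include the autosomal density, and those of the patterning and epithelial loci lie above it. With flanks of 50 kb the neural value was 1.83-fold (1.15 to 2.77), above the autosomal density, and the mesoderm value 1.59-fold (0.909 to 2.58). These intervals cover counting error only and treat sites as independent. Neighbouring sites are not, so the true intervals are wider. The loci were also chosen with earlier results of these data known, which the intervals do not take into account. The densities therefore describe these loci and are no test of an excess.

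**Figure D1:**
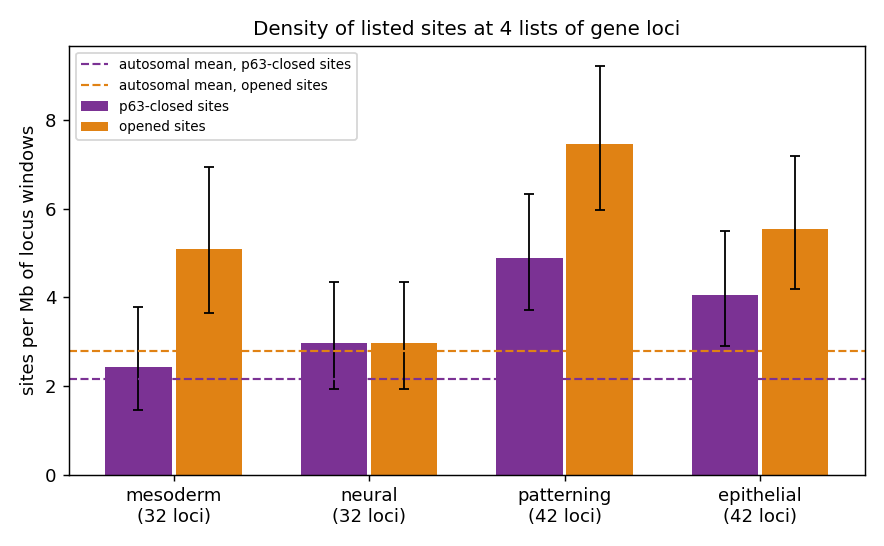
Sites per Mb in the windows of each list of loci (bars; p63-closed in purple, opened in orange), with exact Poisson 95% intervals and the autosomal mean of each list of sites as a dashed line. The p63-closed bars are highest at the patterning loci, at 4.89 per Mb, and lowest at the mesoderm loci, at 2.42 per Mb.

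The opened sites were dense at the same kinds of loci. Their density was 2.67-fold the autosomal value at patterning loci (95% interval 2.14 to 3.30), 1.98-fold at epithelial loci (1.49 to 2.57), 1.82-fold at mesoderm loci (1.30 to 2.48) and 1.06-fold at neural loci (0.695 to 1.56). Of the listed sites at patterning loci, 39.6% were p63-closed (exact 95% interval 31.5 to 48.1%). The share was 42.3% at epithelial loci (32.3 to 52.7%), 50% at neural loci (35.8 to 64.2%) and 32.2% at mesoderm loci (20.6 to 45.6%). Over the autosomes it was 43.6%, which at these flanks of 100 kb lies within the interval of each of the 4 lists of loci. The high density at patterning and epithelial loci was thus not particular to the p63-closed sites, and the order of the shares was not resolved by these counts. The shares depended on the flank. With 50 kb the neural share was 64.7%, and with 250 kb the patterning share was 49.2%, each above its interval at 100 kb.

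Counted by locus, p63-closed sites were found at 24 of 42 patterning, 17 of 42 epithelial, 14 of 32 neural and 11 of 32 mesoderm loci. Long genes have longer windows, so the same count was made in windows of equal size, 100 kb to each side of the gene start. There, 20 patterning loci (47.6%), 12 neural (37.5%), 15 epithelial (35.7%) and 9 mesoderm loci (28.1%) held a p63-closed site. Of all 13888 autosomal tiles of 200 kb, 28.4% held one, so the share of mesoderm loci was at the background. Opened sites were found in 31 patterning (73.8%), 23 epithelial (54.8%), 17 mesoderm (53.1%) and 12 neural windows (37.5%), against 36.8% of the tiles. In the same equal windows, 9 of the 148 loci (6.08%) held 3 or more p63-closed sites, against 3.49% of the tiles. At 82 of the 148 loci there was no p63-closed site in the gene or within 100 kb, and at 38 there was no site of either list. Together the 148 windows cover 1.38% of the autosomal sequence between the outermost listed sites and hold 142 p63-closed sites, 2.36% of the list.

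Few gene starts lay in a site of either list. Of 144 genes with a defined start (the HOX clusters left out), 0 had the start inside a p63-closed site and 5 had it inside an opened site: HAND2, GATA6, CYP26A1, GATA3 and EGFR. Internal starts, such as those of RARB and TP63 described below, were not counted. Adding 2 kb to each side of the start gave 2 genes for the p63-closed sites, RARB and TFAP2B, and 7 for the opened sites. The p63-closed sites cover 0.357% of the autosomes, which at that share would be 0.514 of 144 starts, and 1.2% with 2 kb added, or 1.73 starts, so their counts of 0 and 2 were at the background. For the opened sites the same shares give 0.691 and 2.27 starts. The difference between the lists was not tested. The median distance from a start to the edge of the nearest p63-closed site was 104 kb at patterning loci, 202 kb at epithelial, 238 kb at mesoderm and 242 kb at neural loci. For opened sites, of which there are more, the medians were 59.5 kb, 79.0 kb, 79.5 kb and 139 kb. In 13 of the 148 loci the nearest p63-closed site was within 10 kb, and in 27 it was more than 500 kb away.

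**Figure D2:**
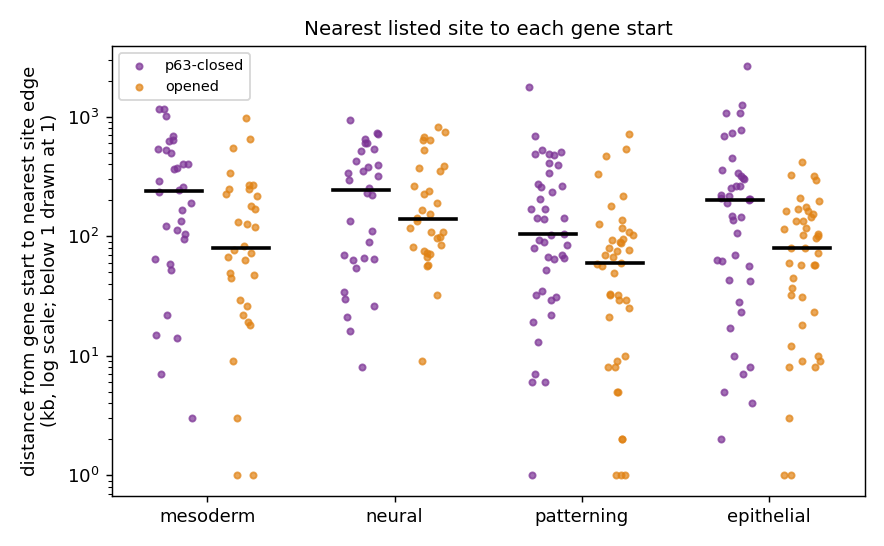
Distance from each gene start to the edge of the nearest p63-closed (purple) and opened (orange) site, in kb on a log scale, by list of loci; each point is 1 locus and black bars are medians. In each list the median for p63-closed sites, 104 to 242 kb, is above that for opened sites, 59.5 to 139 kb.

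Among the patterning loci, the 4 retinoic acid genes held 13 p63-closed sites, 10.0 per Mb, and 10 of these lay at RARB, the retinoic acid receptor beta gene that retinoic acid itself induces. Without RARB the other 3 loci held 3 sites, 4.45 per Mb. RARB held the most of any locus. RARB had 10 p63-closed and 4 opened sites, on chromosome 3. The widest of the 10, 3283 bp from 25212366 to 25215648, ended less than 1 kb before the upstream start of the gene. Of the others, 2 lay upstream, at 25115581 to 25117747 and 25159414 to 25161872, and 7 lay inside the gene, between 25227729 and 25389776. The gene has a well-known internal start, that of the beta2 isoform, which carries a retinoic acid response element. An opened site of 1924 bp covered that start (25468576 to 25470499), and the nearest p63-closed site was 80 kb upstream of it. The p63-closed sites therefore all lay in the part of the locus before the beta2 start. Of the genes that limit retinoic acid, the reductase gene DHRS3 had 2 p63-closed and 4 opened sites, the degrading enzyme gene CYP26B1 had 1 of each, and CYP26A1 had 0 p63-closed and 2 opened sites.

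The MEIS genes encode TALE homeobox cofactors of HOX proteins. MEIS2 had 6 p63-closed and 5 opened sites. On chromosome 15, 4 of the 6 lay inside MEIS2, from 37243565 to 37374884, and 2 lay downstream, from 37088331 to 37101537. MEIS1 had 2 p63-closed sites, 30 and 54 kb upstream of its start, and 2 opened sites inside the gene. The COUP-TF genes, which encode orphan nuclear receptors, had 4 p63-closed sites. At NR2F1 both lay downstream, 91 and 102 kb from the start, while an opened site lay at the start; at NR2F2 both lay upstream, at 32 and 61 kb.

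The 4 HOX clusters, which set position along the body axis, differed in their counts. At HOXB there were 6 p63-closed and 8 opened sites, at HOXA 1 and 6, at HOXC 0 and 6, and at HOXD 0 of either. The sites at HOXB, on chromosome 17, were not mainly among the HOX genes. There, 4 p63-closed sites lay beyond the HOXB1 end of the cluster, from 46548652 to 46600184, 1 lay inside it (46609247 to 46610153) and 1 beyond the HOXB13 end (46828551 to 46830917). Of the opened sites, 6 of 8 lay inside the cluster. Within 100 kb, HOXA, HOXB and HOXC thus had more opened than p63-closed sites, and HOXB alone of the 4 had more than 1 p63-closed site. Both statements depend on that limit. Within 250 kb HOXA had 6 p63-closed and 7 opened sites, HOXB 8 of each, HOXC 1 and 7, and HOXD 1 and 0.

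The Hedgehog genes held 10 p63-closed and 9 opened sites at 5 loci, where the autosomal densities give 3.37 and 4.35. GLI3, the main repressor among the Hedgehog effectors, had 6 against 1 opened site. On chromosome 7, 4 of them lay together inside GLI3, between 42174820 and 42197063, at 82 to 102 kb from its start, and the widest was 3817 bp (42193247 to 42197063). The opened site lay 5 kb from the start. The co-receptor gene GAS1 had 2 sites of each list and the effector gene GLI2 had 1 of each. The receptor gene PTCH1 had 1 p63-closed and 5 opened sites, and the ligand gene SHH had 0 of either. GLI3 alone of the 5 loci thus had more p63-closed than opened sites.

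The BMP genes held fewer within 100 kb. There were 6 p63-closed and 17 opened sites at 9 loci. BMP4, the gene of the added ligand, had 2 p63-closed sites, 36 and 76 kb downstream of its start. BMP7, BMPR1B, BAMBI and SMAD7 had 1 each, that of BMPR1B being a site inside its neighbour UNC5C, and BMP2, NOG, ID2 and SMAD6 had 0. The p63-closed density of the group in these windows, 2.46 per Mb, was close to the autosomal 2.16, while the opened density was 6.97 per Mb against 2.79 over the autosomes. The counts depended on the limit of 100 kb. Within 250 kb BMPR1B had 5 p63-closed sites, BMP4 and BAMBI 4 each and BMP2 3. BMP7 had 2, ID2 and SMAD7 had 1 each, and NOG and SMAD6 had 0. At the WNT and FGF genes there were 3 p63-closed sites at 5 loci. WNT5A, a ligand gene, had 2, and LEF1, which encodes a DNA-binding effector of WNT, had 1 against 5 opened sites. SOX9, a factor of cartilage and hair follicle, had 2 p63-closed sites just past its end, on chromosome 17 from 70122565 to 70130432, and 0 opened sites. The Iroquois genes IRX1 and IRX3 had 0 p63-closed sites within 100 kb, but 1 and 6 within 250 kb.

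**Figure D3:**
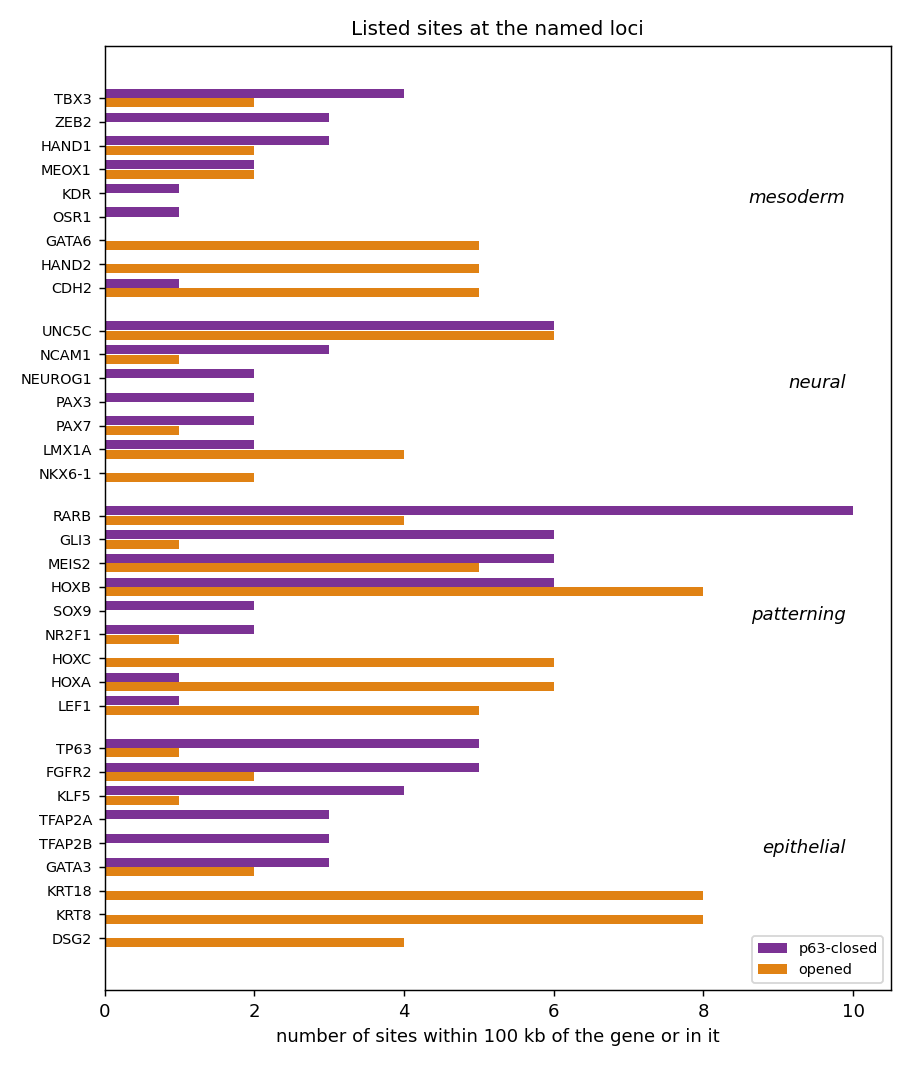
Number of p63-closed (purple) and opened (orange) sites in or within 100 kb of the loci named in the text, grouped by list. RARB has the most p63-closed sites, 10, and KRT8 and KRT18, whose windows overlap, share 8 opened sites and have 0 p63-closed sites.

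At the epithelial loci the p63-closed sites were found mainly around genes of transcription factors. The 20 loci of surface ectoderm factors held 28 p63-closed and 26 opened sites, 5.84 and 5.42 per Mb. The 18 loci of junction, keratin and matrix genes held 7 and 23, or 1.67 and 5.49 per Mb. The opened densities of these groups were alike in size; over the autosomes the p63-closed density was 2.16 per Mb. This split was made after the counts were seen and was not tested.

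TP63, the gene lost in the p63-/- cells by their label, had 5 p63-closed sites and 1 opened site, all inside the gene on chromosome 3. The p63-closed sites ran from 189405118 to 189511124, at 57 to 160 kb from the upstream start. The widest of them, 4096 bp from 189507029 to 189511124, had its first base within 1 kb of the internal start that gives the DeltaN isoforms, the p63 forms of basal epidermis. The opened site (189558944 to 189561739) lay 52 kb past that start. The labels do not say which part of the gene was altered.

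The AP-2 genes, which act early in surface ectoderm, differed among themselves. TFAP2A had 3 p63-closed and 0 opened sites on chromosome 6. Of these, 1 of 700 bp lay inside the gene, 4 kb from its start (10415151 to 10415850), and 2 lay downstream, from 10314116 to 10332719. TFAP2B also had 3 p63-closed and 0 opened sites, with 1 that ended 2 kb before its start (50782968 to 50784073). TFAP2C had 0 p63-closed sites and 1 opened site. GATA3, a zinc finger factor of surface ectoderm, had 3 p63-closed sites downstream, 43 to 109 kb from its start on chromosome 10, while its start lay inside an opened site. KLF5, a Kruppel-like factor of epithelia, had 4 p63-closed sites on chromosome 13 between 73559410 and 73682468, of which 1 was inside the gene, and 1 opened site. FGFR2, which encodes the FGF receptor of epithelia, had 5 p63-closed sites on chromosome 10, with 2 inside the gene and 3 upstream, from 123430849 to 123457571. The ETS factor gene ELF3 had 3 p63-closed and 6 opened sites. GRHL2, a grainyhead factor gene, had 2 p63-closed sites upstream and 6 opened sites, GRHL3 had 1 of each, and GRHL1 had 0 and 1. MSX2, a homeobox gene of non-neural ectoderm, had 2 p63-closed sites, 1 on either side of it, and MSX1 had 0.

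Of the 18 loci of structural epithelial genes, 14 had 0 p63-closed sites, and 71.6% of autosomal tiles of 200 kb also had none, so this share was near the background. The windows of these loci are longer than the tiles, so the shares are not strictly like for like. Their windows held 7 p63-closed sites where the autosomal density gives 9.07, and 23 opened sites where it gives 11.7. KRT8 and KRT18, the keratin pair of simple epithelia, lie side by side on chromosome 12, and had the same 8 opened sites and 0 p63-closed sites; the nearest p63-closed site was 689 kb from the start of KRT8. DSG2, a desmosomal cadherin gene, had 4 opened and 0 p63-closed sites. KRT5 and KRT14, the keratins of basal epidermis, had 0 of either. CDH1 (E-cadherin) and its neighbour CDH3 (P-cadherin) had 0 p63-closed sites and shared 1 opened site. Among the others, ITGA6 had 2 p63-closed sites and EPCAM had 1. DSP, the desmoplakin gene, had 3 p63-closed sites upstream, on chromosome 6 from 7479490 to 7534475, and 3 opened sites further upstream.

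The neural loci with the most p63-closed sites were UNC5C and NCAM1, long genes of axon guidance and adhesion. UNC5C, a netrin receptor gene, had 6 p63-closed and 6 opened sites, all inside the gene on chromosome 4. NCAM1, a neural adhesion molecule gene, had 3 p63-closed sites inside it, on chromosome 11 from 113060235 to 113083966, and 1 opened site. Sites inside genes made up 61.5% of the 26 p63-closed sites at neural loci (exact 95% interval 40.6 to 79.8%), whereas gene bodies made up 26.9% of these windows. Over all 4 lists the share inside genes was 35.2% (27.4 to 43.7%), against 24.0% of the window length.

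The 10 forebrain and eye field loci held 3 p63-closed and 3 opened sites, where the autosomal densities give 4.56 and 5.88. PAX6 and EMX2 had 1 p63-closed site each. OTX2, LHX2, LHX5, SIX3, RAX and FEZF2 had 0 of either list. SOX2, a factor of pluripotent cells and neural plate, had 1 p63-closed site 17 kb upstream (chromosome 3, 181412589 to 181414266), and SOX1 had 0 of either. The paired box genes of dorsal neural tube and neural crest, PAX3 and PAX7, had 2 p63-closed sites each. Those at PAX3 lay inside the gene on chromosome 2, from 223071627 to 223074678, with 0 opened sites. SOX10, of neural crest, had 0 p63-closed sites and 1 opened site, and FOXD3 had 0 of either. NEUROG1, a proneural gene, had 2 p63-closed sites 64 and 67 kb upstream, and NEUROG2 and OLIG2 had 0. The LIM homeobox gene LMX1A had 2 p63-closed sites inside it and 4 opened sites, and NKX6-1, of the ventral neural tube, had 0 and 2.

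Of the 32 mesoderm loci, 21 had 0 p63-closed sites, near the background of 71.6% of tiles with none, and 15 had more opened than p63-closed sites. Most of these windows are longer than the tiles. In windows of equal size around the gene start, 28.1% of the mesoderm loci held a p63-closed site, against 28.4% of tiles. The 7 early primitive streak genes (TBXT, EOMES, MIXL1, GSC, MESP1, TBX6 and MSGN1) had 0 p63-closed sites and 3 opened sites, where the autosomal densities give 3.10 and 4.00. The 9 heart and lateral mesoderm genes had 4 p63-closed and 19 opened sites, 1.95 and 9.28 per Mb, where the autosomes have 2.16 and 2.79. HAND1, of lateral and extraembryonic mesoderm, had 3 of those 4, all upstream on chromosome 5, from 153865370 to 153897635, and 2 opened sites. Its relative HAND2 had 0 p63-closed and 5 opened sites, with its start inside an opened site. GATA4 had 1 p63-closed and 4 opened sites, and GATA6 had 0 and 5. Of the T-box genes, TBX3 had 4 p63-closed and 2 opened sites, and TBX5, TBX20, TBXT, EOMES and TBX6 had 0 p63-closed sites. At TBX3, on chromosome 12, 3 of the 4 lay upstream within 20 to 28 kb of the start (115140608 to 115150760), and the widest, 3327 bp, lay across the end of the gene (115104791 to 115108117).

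Genes of epithelial-mesenchymal transition were mixed. ZEB2, which encodes a repressor of E-cadherin, had 3 p63-closed sites and 0 opened sites on chromosome 2, with 2 inside the gene and 1 upstream (145294228 to 145294916). ZEB1 and TWIST1 had 1 p63-closed and 0 opened sites each. CDH2, the N-cadherin gene, had 1 p63-closed and 5 opened sites, and SNAI2 had 0 and 2. Of the somite and intermediate mesoderm genes, MEOX1 had 2 of each list, with a p63-closed site 4 kb upstream of its start, OSR1 had 1 p63-closed site, and MEOX2 and WT1 had 0. KDR, a VEGF receptor gene, had 1 p63-closed site just downstream of the gene.

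**Figure D4:**
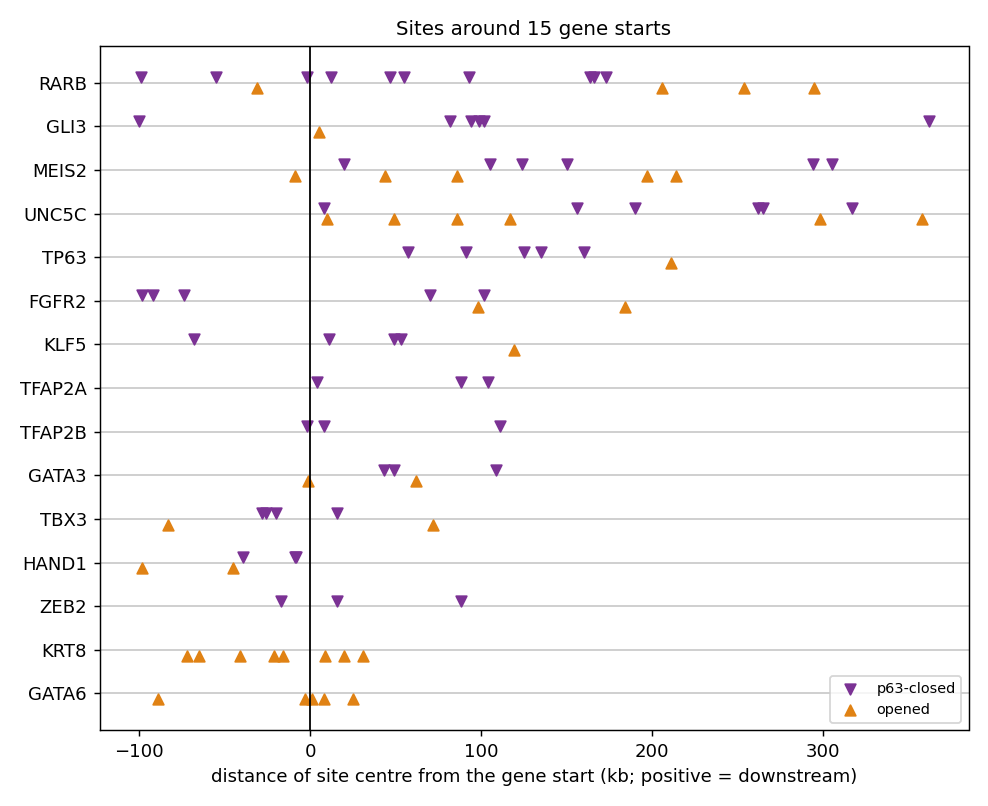
Centres of p63-closed (purple, pointing down) and opened (orange, pointing up) sites around 15 gene starts, by distance in kb in the direction of transcription; sites in the gene or within 100 kb of it are drawn. At RARB the p63-closed sites run from 99 kb upstream to 173 kb downstream of the start, while KRT8 and GATA6 have opened sites only.

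Most p63-closed sites lay at none of these loci: 5863, or 97.6% of the list, fell outside the 148 windows. The 10 autosomal windows of 1 Mb with the most p63-closed sites show what kinds of locus the densest stretches are. They were chosen by their counts, so the counts are a description. The window at 189 Mb of chromosome 3 held 16 sites, with 5 in TP63, 3 in its neighbour TPRG1 and 3 in P3H2. At 15 Mb of chromosome 20 all 14 sites lay inside the very long gene MACROD2, which held 24 in its whole length against 3 opened sites. The 14 sites at 96 Mb of chromosome 15 all lay between 96258175 and 96837721, upstream of NR2F2 and outside it, so that only 2 of them fell within 100 kb of that gene. At 25 Mb of chromosome 3, 7 of 12 sites lay in RARB.

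In 3 further windows a developmental gene lay in or beside the window, and the sites lay outside it, many of them far from it. At 115 Mb of chromosome 12 the 12 sites ran from 115104791 to 115760566, from TBX3 into the stretch upstream of it. TBX3 had 6 p63-closed sites within 250 kb. At 89 Mb of chromosome 9, where GAS1 lies, 0 of the 13 sites were in the gene, and GAS1 had 7 p63-closed sites within 250 kb. At 67 Mb of chromosome 2 the 13 sites ran from 67008640 to 67992694, all more than 100 kb beyond the end of MEIS1. The gene placed in that window, ETAA1, held 0 of them. At 96 Mb of chromosome 4, 6 of the 13 sites lay inside UNC5C. Of the last 2 windows, that at 20 Mb of chromosome 10 had 3 of its 12 sites in PLXDC2, and that at 123 Mb of chromosome 2, with 12 p63-closed and 0 opened sites, lay in a stretch between TSN and CNTNAP5 that held none of the genes placed here. RARB, NR2F2, TBX3, MEIS1, GAS1 and TP63 each lay in or beside a window with 12 or more p63-closed sites, although within 100 kb MEIS1, NR2F2 and GAS1 had 2 each. The windows were picked by count and the genes with these data known, so this is a description of where the windows lie.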

How the data were processed

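The lists are the authors' own. Per the submitters' processing notes, FastQC, Bowtie2, SAMtools, MACS2 and DESeq2 were used, with builds hg19 and GRCh37; no version, role, threshold or pooling is stated there. Each deposited list has 4 columns (chromosome, start, end, name). A locus with no listed site is not shown to be unchanged.

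No annotation of the files' build was used. The positions of the 148 loci and 36 landmark genes (176 distinct) are general knowledge of hg19. In RefSeq's gene table (GRCh38.p14), from which no coordinate was taken, all 176 lie on the same chromosome, 155 of 155 neighbouring pairs have the same order, and 46 of 48 pairs under 2 Mb apart have the same spacing within 5 kb. Gene length matches within 5 kb for 151 of the 176; the others differ by more, which can move counts inside those genes and at their window edges. Members, loci and landmarks were chosen with earlier results of these data known.

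Named loci are the 6 with the most p63-closed sites and the 3 with the largest excess of opened sites in each list, plus TP63; other names fill out a gene family and were chosen after their values were seen. Some loci are counted in the lists but not reported here by name. Densities use merged windows. Intervals are exact (Clopper-Pearson or Poisson, 95%). The count was tested on simulated sites. Alternatives were flanks of 50 and 250 kb, windows around gene starts, leaving out the richest locus, and catalogue numbers (taken from site names) in place of base pairs. Python 3.11.15, numpy 2.4.6, pandas 2.3.3, scipy 1.17.1 and matplotlib 3.10.9 were used.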

Additional observations from a re-analysis of the deposited data

How the results depend on the processing

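No paired analysis was possible because sites have no value per sample, which also means that replicates cannot be left out in turn. Of 52 alternative settings, 48 stayed within the 95% interval of the value or within 1.5 times the count, and 4 moved. With flanks of 250 kb, the loci with a p63-closed site rose from 11 to 18 (mesoderm) and from 17 to 28 (epithelial), as longer windows hold more sites, and the p63-closed share at patterning loci went from 39.6% to 49.2%. With flanks of 50 kb the share at neural loci went from 50% to 64.7%. The cause of the changes in share was not tested. With flanks of 50 kb the relative density at neural loci was 1.83 (95% interval 1.15 to 2.77) and at mesoderm loci 1.59 (0.909 to 2.58), against 1.37 and 1.12; with 250 kb it was 1.08 and 1.15. Without TBX3 the density at mesoderm loci fell from 1.12 to 0.908 times the autosomal value. Leaving RARB out of the retinoic acid genes, a setting chosen after seeing the data, took them from 10.0 to 4.45 p63-closed sites per Mb. At patterning loci the relative density ranged from 1.97 (without RARB) to 2.46, and at epithelial loci from 1.72 to 1.94.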

Other observations

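Some long genes outside the 4 lists also held p63-closed sites, and others held few or none. Over the autosomes there were 2.16 p63-closed sites per Mb, a density at which long genes hold some sites by their length. LRP1B, a lipoprotein receptor family gene of 1900 kb, had 7 p63-closed sites and 1 opened site. SORCS3 and SORCS1, which encode neuronal sorting receptors and span 624 and 591 kb, had 5 and 3 p63-closed sites against 0 and 1 opened sites. CNTNAP5, a neuronal adhesion gene of 890 kb, had 4 and 2, and TENM4, a teneurin gene of 788 kb, had 2 and 3. MALRD1, of 686 kb, had 1 p63-closed site, and NEBL and MED13L, of 394 and 319 kb, had 0. BMPR1B, at 401 kb longer than UNC5C beside it, had 0 sites of either list inside it, whereas UNC5C had 6 of each. These genes were chosen with their surroundings known, and their counts are given as values.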
